A study of Mus musculus with 2 samples.

Results

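Prox1-negative endothelial cells of the mouse mitral valve are cell barcodes with an endothelial transcript profile in which no Prox1 molecule was counted. A barcode entered the endothelial group with at least 5 unique molecular identifiers (UMIs, counted RNA molecules) summed over the endothelial genes Pecam1, Cdh5 and Emcn, under 1% of its UMIs from the interstitial genes Dcn, Col1a1, Col1a2 and Col3a1, fewer than 5 UMIs of the macrophage complement genes C1qa, C1qb and C1qc, and fewer than 5 of the lymphatic genes Ccl21a, Mmrn1 and Reln. Members had 0 UMIs of Prox1. The rule gave 242 members of 562 endothelial barcodes and 18630 barcodes past the quality filters. The wild type library held 124 members of 245 endothelial barcodes, or 50.6% (95% exact interval 44.2% to 57.0%), and the Fbn1 C1039G/+ library 118 of 317, or 37.2% (31.9% to 42.8%). The share was lower in the Fbn1 C1039G/+ library: Fbn1 C1039G/+ minus wild type was -13.4 points, with a Newcombe interval from -21.4 to -5.12. Of all barcodes past the filters, members were 1.35% and 1.25%, a difference of -0.0993 points whose interval (-0.428 to 0.227) includes 0, while Prox1-positive endothelial cells numbered 121 of 9190 and 199 of 9440. The share among endothelial cells therefore moves with the number of Prox1-positive cells as well as with the 124 and 118 members. All these choices were made from the measured UMIs, so the values of the genes in the rule describe the selection.

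The study compared mitral valves of C57BL/6J mice at 1 month of age. One library was made from 5 pooled Fbn1 +/+ (wild type) mice and one from 3 pooled mice carrying 1 copy of Fbn1 C1039G, a cysteine substitution in fibrillin-1 that is used as a mouse model of Marfan syndrome. Both leaflets were digested to single cells and captured with the 10x Genomics 3′ kit, version 3.1. Each genotype had 1 library, so no difference could be set against a spread between replicates, no p-value was computed, and every interval covers counting error in these pools only.

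Prox1 is a homeobox transcription factor (chr1:190118035-190170714 on the minus strand, mm10) known for specifying lymphatic endothelium. It is also made by a subset of valve endothelium, on the face of the leaflet that lies away from the direct stream of blood. The leaflet surface is covered by endothelium that came from the endocardium and is known to make the Wnt ligands Wnt9b and Wnt4, the transcription factor Nfatc1 and the hyaluronan link protein Hapln1. Capillary endothelium of heart muscle is known instead for genes that take up fatty acids, among them Cd36, Fabp4, Gpihbp1 and Lpl, and for Aqp7, Car4, Btnl9, Rgcc and Tcf15. The comparison of these capillary-type genes with valve-surface genes asks which kind of endothelium the cells without Prox1 resemble.

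The members carried endothelial transcripts in both libraries, also of genes that did not select them. Levels are given as CPM, the count of a gene's UMIs scaled to a fixed total of the UMIs summed over the members of a library. Of the selecting genes, whose levels the rule raises, Pecam1, the platelet and endothelial adhesion molecule, reached 1305 CPM in wild type and 1282 CPM in Fbn1 C1039G/+ members, and Cdh5, the adhesion protein of endothelial junctions, 311 and 369 CPM. Over 6 endothelial markers, 3 of them selecting genes, the members had 5353 and 5258 CPM, which is a description and no check of the label. Of the markers that the rule did not use, Egfl7 reached 724 and 1056 CPM, the VEGF receptor Flt1 917 and 686 CPM, and the water channel Aqp1 1753 and 1389 CPM. Flt1 was found in 94.4% and 92.4% of members and in 1.46% and 2.62% of the barcodes with an interstitial profile. Esam and Tjp1, both of endothelial junctions, were at 452 and 340 CPM and at 142 and 152 CPM. Cldn5, the tight junction claudin of most blood vessels, was low, at 13.8 and 24.4 CPM, and was found in 4 and 7 members.

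Members were shallower than Prox1-positive endothelial cells. Their median was 9214 UMIs in wild type (range 2389 to 63225) and 7508.5 in Fbn1 C1039G/+ (2468 to 50097), against 14478 and 13117 UMIs in cells with Prox1. In total 1452199 and 1272130 UMIs stood behind the members' levels. Summed over 10 interstitial markers the members had 3508 and 4370 CPM, against 40597 and 44866 CPM in interstitial barcodes, and the 4 interstitial genes of the rule took a median of 0.157% and 0.304% of a member's UMIs. The macrophage markers summed to 39.9 and 30.7 CPM and the cardiomyocyte markers to 44.1 and 44.0 CPM, with Myh6 and Pln at 0. Mural markers summed to 67.5 and 333 CPM, of which Acta2 alone gave 41.3 and 300 CPM. Melanocyte markers summed to 9.64 and 77.8 CPM, and T cell markers to 35.8 and 0 CPM. Lymphatic markers summed to 76.4 and 78.6 CPM, with Prox1 and Mmrn1 at 0, platelet markers to 9.64 and 9.43 CPM, Schwann cell markers to 2.07 and 3.14 CPM, B cell markers to 0.689 and 0 CPM and neutrophil markers to 0.689 and 0.786 CPM. Erythroid markers summed to 33.1 and 2848 CPM. One Fbn1 C1039G/+ member held 3571 hemoglobin UMIs, and 1 wild type member had a barcode that also occurs in the other library. Both pools gave members with Xist and no Y-linked gene (64 and 72) and members with a Y-linked gene and no Xist (45 and 34).

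A count of 0 Prox1 UMIs depends on depth. When every endothelial cell with at least 3000 UMIs was thinned to 3000 UMIs, 70 of 121 wild type and 83 of 197 Fbn1 C1039G/+ cells that had been Prox1-positive had no Prox1 UMI left. The share without Prox1 was then 78.8% in wild type and 63.1% in Fbn1 C1039G/+, and the Fbn1 C1039G/+ library was again lower, with a difference of -15.7 points. At the edges of the rule, 7 wild type and 7 Fbn1 C1039G/+ members had 5 or 6 endothelial UMIs, with a median depth of 3883 and 4116 UMIs, and 9 and 8 barcodes missed it with 3 or 4. Members with 0.5% to under 1% interstitial UMIs numbered 27 and 39, and 10 and 17 barcodes without Prox1 lay just outside, at 1% to under 1.5%. Wnt9b was found in 25.9% and 20.5% of the former and in 20% and 17.6% of the latter.

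Most capillary-type genes were absent or near absent. Of the 16 genes on that list, Car4, Aqp7, Btnl9, Tcf15 and Timp4 had 0 UMIs in the members of both libraries. A floor of 3 counts stands for 2.07 CPM in wild type and 2.36 CPM in Fbn1 C1039G/+ members. Rgcc had 0.689 and 0.786 CPM, from 1 cell in each library. Gpihbp1, which carries lipoprotein lipase across capillary endothelium, had 3.44 and 3.93 CPM from 3 and 4 cells, Meox2, a homeobox gene of heart capillaries, had 6.20 and 9.43 CPM, and the apelin receptor gene Aplnr had 0.689 and 0 CPM. Sparcl1 had 26.9 CPM in 17 wild type members and 3.93 CPM in 1 Fbn1 C1039G/+ member. In Prox1-positive cells Car4, Aqp7 and Tcf15 were at 0 CPM too. When those cells were grouped by Prox1 UMIs, Gpihbp1, Btnl9 and Timp4 reached at most 3.62 CPM. The low levels of these 6 genes were therefore not particular to the members. The 6 genes that reached the measured level (at least 20 CPM in a library and 50 UMIs over both) were Cd36, Fabp4, Cd300lg, Lpl, Kdr and Ly6c1. Kdr, the VEGF receptor, is known from most blood endothelium and not from capillaries alone.

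The measured capillary-type genes sat in few cells. Fabp4, a fatty acid binding protein (chr3:10204088-10208576), had 240 UMIs in 23 of 124 wild type members and 454 UMIs in 19 of 118 Fbn1 C1039G/+ members. One Fbn1 C1039G/+ cell held 212 of the 454, and the next highest cell 53. Cd36, a fatty acid transporter, had 30 UMIs in 8 wild type cells and 79 UMIs in 13 Fbn1 C1039G/+ cells, of which 46 were in 1 cell. The share of members with a Cd36 UMI was 6.45% and 11.0%, against 44.2% of wild type macrophage barcodes, which make this gene themselves, and 0.677% and 0.758% of interstitial barcodes. Ly6c1, a surface antigen, was spread more widely, over 69 wild type and 43 Fbn1 C1039G/+ members at 429 and 365 CPM. All but 1 of the members with at least 3 Ly6c1 UMIs in each library also passed the valve gate defined below, 42 of 43 and 30 of 31.

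At least 3 UMIs of the valve-surface genes Hapln1, Nfatc1, Wnt9b and Cldn11 together were found in 72.6% of wild type and 55.1% of Fbn1 C1039G/+ members. In Prox1-positive endothelial cells, which were deeper, the shares were 62.0% and 67.8%, so this trait was not particular to the members. Taken singly, Hapln1, Wnt9b and Wnt4 had medians of 4, 2 and 2 UMIs in wild type members and of 0 in Fbn1 C1039G/+ members, where 58, 53 and 58 of 118 cells held a UMI. Hapln1 (chr13:89539796-89611652) reached 777 CPM (interval 732 to 823) in wild type and 559 CPM (519 to 602) in Fbn1 C1039G/+ members. It was found in 72.6% and 49.2% of members, against 19.2% and 16.9% of interstitial barcodes, whose median depth was 10035 and 10116 UMIs, and 1.43% of wild type macrophage barcodes. Wnt9b (chr11:103727364-103749821) reached 569 and 377 CPM in 64.5% and 44.9% of members, against 0.241% and 0.102% of interstitial barcodes. Wnt4 was at 408 and 288 CPM and Nfatc1 at 125 and 180 CPM. The shear-responsive factor Klf4 stood at 605 and 586 CPM, and the heart transcription factors Tbx20 and Gata4 at 319 and 311 CPM and at 183 and 179 CPM. Only Adgrg6 of the 16 valve-surface genes missed the measured level, at 3.44 and 3.93 CPM. The plot of both lists shows the near-empty capillary-type genes beside the filled valve-surface genes.

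**Figure D1:**
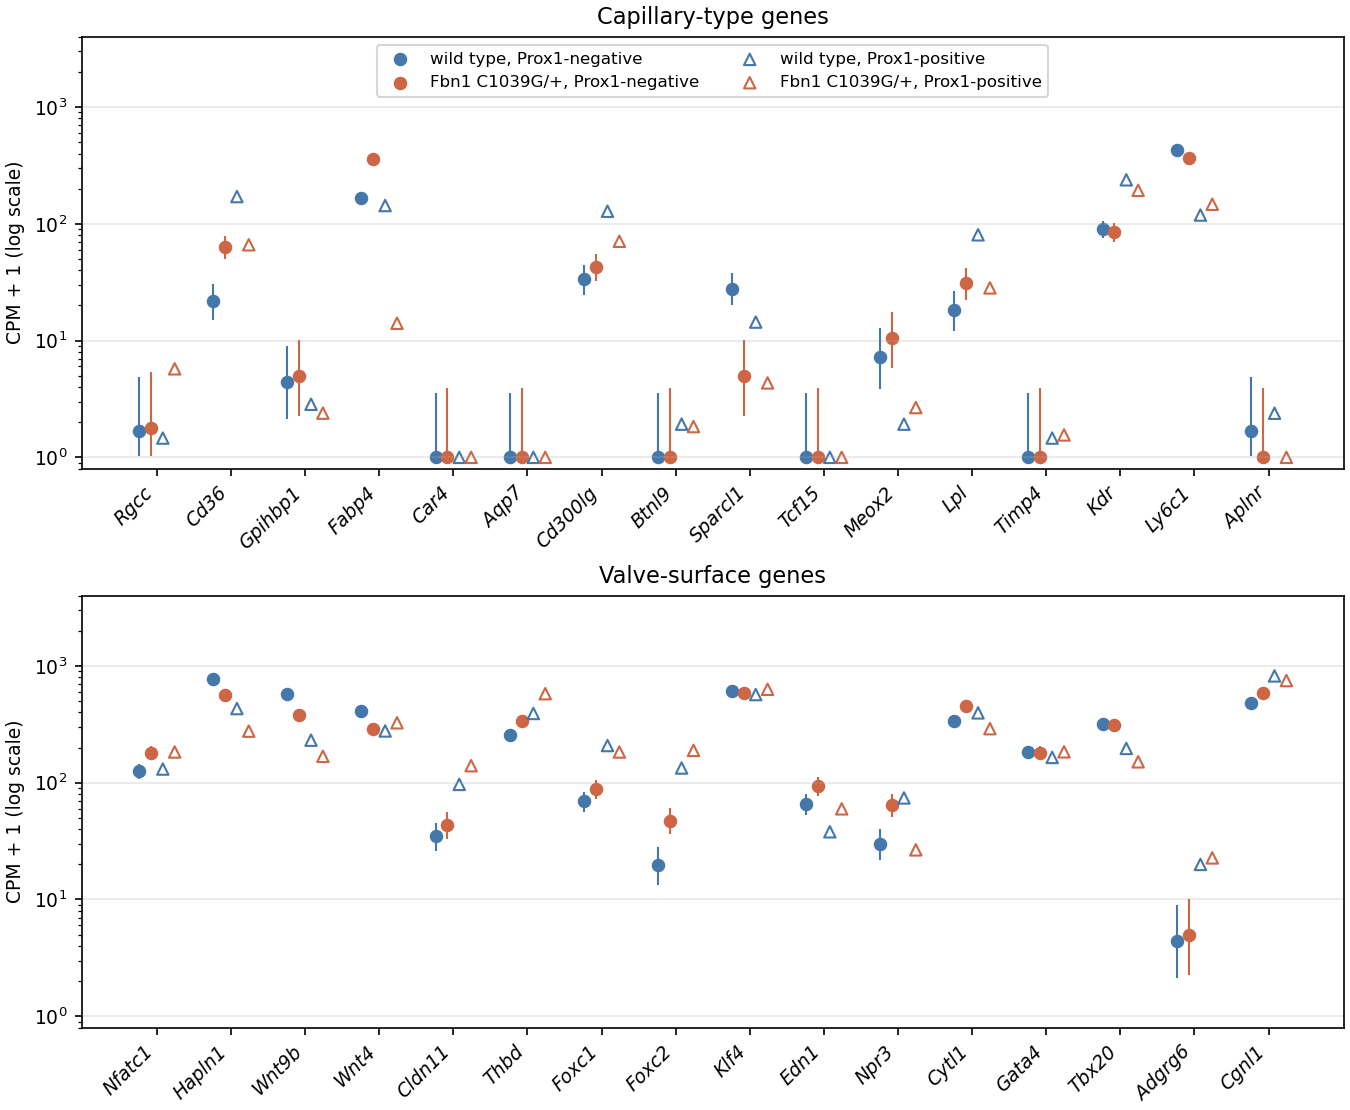
Levels of the 16 capillary-type genes (top) and the 16 valve-surface genes (bottom), as CPM + 1 on a log axis, in Prox1-negative (filled circles, with 95% exact Poisson intervals) and Prox1-positive (open triangles) endothelial cells of the wild type (blue) and Fbn1 C1039G/+ (orange) libraries. Car4, Aqp7, Btnl9, Tcf15 and Timp4 lie at 0 UMIs in the members of both libraries, while 15 of 16 valve-surface genes reached the measured level.

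Promoter sequences are shown for 3 genes whose levels separated the members from Prox1-positive cells in both libraries: Wnt9b and Hapln1, which were higher in them than in Prox1-positive cells, and Cldn5, which was lower. Each runs 5′ to 3′ on the gene's own strand from 250 bases before to 50 bases after the RefSeq start (GRCm38.p6). Capitals mark CACCC or its reverse complement GGGTG, the core letters of the box that Krüppel-like factors such as Klf2 and Klf4 are known to bind. Both strands were searched.
Wnt9b (chr11:103749772-103750071, minus strand): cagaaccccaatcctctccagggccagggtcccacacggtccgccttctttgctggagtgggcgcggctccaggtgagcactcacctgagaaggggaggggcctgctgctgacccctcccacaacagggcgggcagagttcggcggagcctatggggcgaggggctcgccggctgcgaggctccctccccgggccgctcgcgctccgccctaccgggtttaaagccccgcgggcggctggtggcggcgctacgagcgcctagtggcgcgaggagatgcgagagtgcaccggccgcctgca
Hapln1 (chr13:89540386-89540685, plus strand): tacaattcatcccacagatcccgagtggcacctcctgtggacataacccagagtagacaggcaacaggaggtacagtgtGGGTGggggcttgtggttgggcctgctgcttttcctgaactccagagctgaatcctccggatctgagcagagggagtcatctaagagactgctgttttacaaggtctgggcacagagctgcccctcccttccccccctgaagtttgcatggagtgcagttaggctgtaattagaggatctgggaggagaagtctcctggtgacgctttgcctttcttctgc
Cldn5 (chr16:18776597-18776896, plus strand): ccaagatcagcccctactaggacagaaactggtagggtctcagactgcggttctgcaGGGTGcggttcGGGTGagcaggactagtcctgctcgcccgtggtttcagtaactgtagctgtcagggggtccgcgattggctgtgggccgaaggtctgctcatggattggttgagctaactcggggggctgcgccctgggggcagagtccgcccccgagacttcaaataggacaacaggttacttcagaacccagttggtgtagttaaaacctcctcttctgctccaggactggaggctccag
The letters occurred 0 times in the Wnt9b window, 1 time in the Hapln1 window and 2 times in the Cldn5 window. Of 32851 mouse promoters of this length in the same table, 57.5% held them at least once, so a match is common and describes the letters only.

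A gate on UMIs divided the members. Cells with at least 3 UMIs over Hapln1, Nfatc1, Wnt9b and Cldn11 passed the valve gate, and cells with at least 3 over Gpihbp1, Cd36, Aqp7, Cd300lg, Car4 and Btnl9 passed the capillary gate. In wild type 84 of 124 members (67.7%, interval 58.8% to 75.9%) passed the valve gate alone, and in Fbn1 C1039G/+ 61 of 118 (51.7%, 42.3% to 61.0%). The difference was -16.0 points (-27.8 to -3.69). The capillary gate alone took 6 members (4.84%) and 12 members (10.2%), a difference of 5.33 points (-1.48 to 12.6) whose interval includes 0. Both gates took 6 and 4 members, and neither gate 28 (22.6%) and 41 (34.7%). A class of this kind is a range: 10 and 7 members had 3 or 4 valve-gate UMIs and 23 and 23 had 1 or 2, and 7 and 9 members had 3 or 4 capillary-gate UMIs. With a gate of 5 UMIs the capillary gate alone took 4.03% and 4.24%, a difference of 0.205 points (-5.40 to 5.98). No UMI of the 4 valve-gate genes was found in 8.87% of wild type and 25.4% of Fbn1 C1039G/+ members, a difference of 16.6 points (7.13 to 25.9). In Prox1-positive cells the valve gate alone took 47.1% and 53.3%, a difference of 6.16 points (-5.08 to 17.2). The capillary gate alone took 13.2% and 7.04% of them, a difference of -6.19 points (-13.9 to 0.428). At least 3 capillary-gate UMIs were found in 28.1% and 21.6% of Prox1-positive cells, which were deeper, against 9.68% and 13.6% of members. Whether these library differences differ between cells with and without Prox1 was not tested. After thinning to 3000 UMIs the valve gate alone took 53.3% and 39.3% of members.

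**Figure D2:**
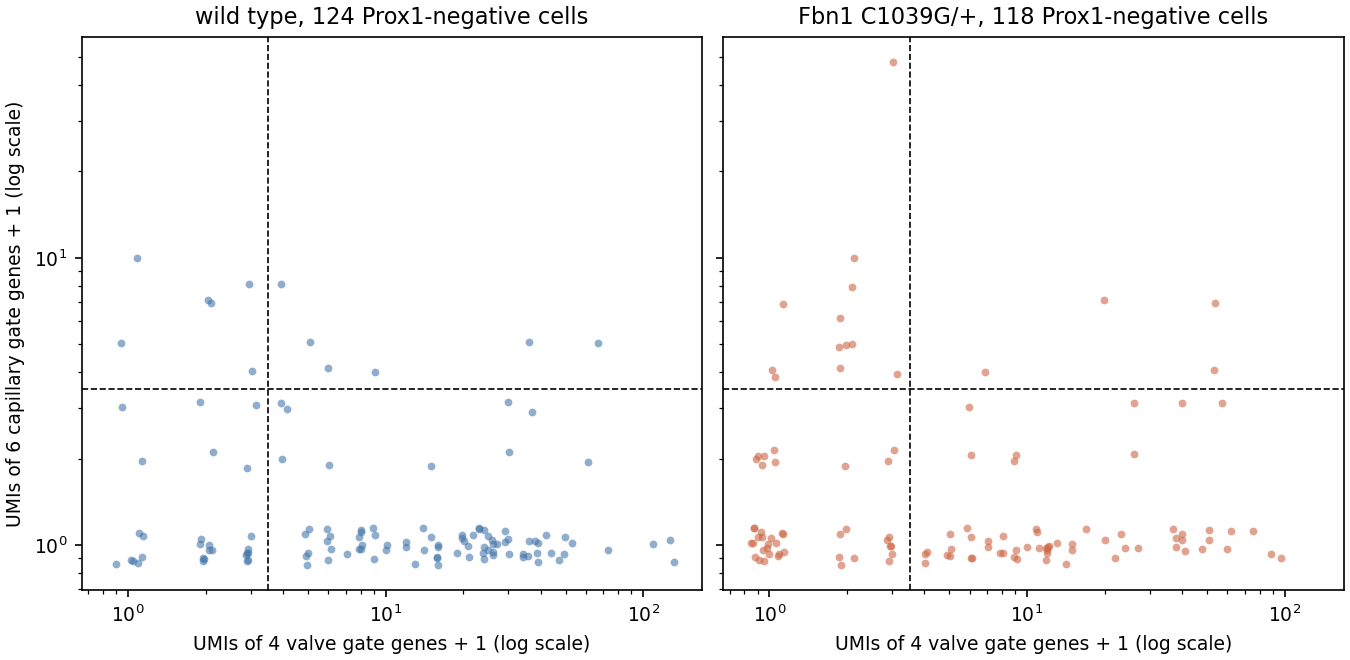
Each point is a Prox1-negative cell, with UMIs of the 4 valve-gate genes + 1 (x) and of the 6 capillary-gate genes + 1 (y) on log axes with small random offsets; dashed lines mark the limit of 3 UMIs. Most of the 124 wild type cells lie right of the vertical line, and 1 Fbn1 C1039G/+ cell holds far more capillary-gate UMIs than any other.

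Cells that passed the capillary gate alone were few, and leukocyte genes were far higher in those of the wild type library. Here and below, capillary-gated and valve-gated cells are those that passed the named gate alone. In the 6 wild type and 12 Fbn1 C1039G/+ cells, Cd74 stood at 11167 and 27.6 CPM, H2-Aa at 3826 and 13.8 CPM, Cd52 at 1230 and 55.2 CPM and Coro1a at 390 and 13.8 CPM. The part of leukocyte RNA in the levels of these cells was not tested. Rgcc, Meox2, Fabp4, Lpl and Kdr stood at 0, 19.5, 332, 19.5 and 293 CPM in the 6 wild type cells and at 13.8, 0, 0, 41.4 and 331 CPM in the 12 Fbn1 C1039G/+ cells. Kdr was above its valve-gated levels of 62.3 and 60.4 CPM in both libraries. Lpl, at 11.2 and 12.8 CPM in valve-gated members, rested on 1 and 3 UMIs in the capillary-gated cells, too few to compare. Fabp4, at 51.1 and 300 CPM in valve-gated members, was above that level in wild type alone. Of the 258 UMIs behind the 300 CPM, 212 were in 1 cell. The depth of the capillary-gated cells was low, with medians of 5795 and 5586 UMIs. In their sums 1 UMI is worth 19.5 or 13.8 CPM. Of the gate genes, Cd36 and Cd300lg gave all UMIs except 2 of Gpihbp1 in Fbn1 C1039G/+: Cd36 stood at 469 and 953 CPM and Cd300lg at 215 and 373 CPM. Measured against members of the valve gate alone, 91 of 3312 genes (2.75%) were at least 1.5-fold higher with an interval excluding 1 in both libraries, and 244 (7.37%) were lower. The leading genes on the higher side included Clec2d, Id2, Epha7, Tm4sf1, Cytl1, Ctsh, Efnb2, Rdx and Fn1. Tm4sf1, a membrane protein of endothelial cells, was at 4451 and 11103 CPM against 535 and 1003 CPM. Epha7 and Efnb2, a receptor and a ligand of the ephrin system, were at 527 and 359 CPM against 27.9 and 37.2 CPM, and at 351 and 539 CPM against 63.2 and 91.8 CPM. The 10 leading genes of the lower side, with 0 UMIs in the capillary-gated cells of both libraries, were Nts, Ly6c1, Ptprr, Dkk2, Pi16, Cyp26b1, Nppc, Anxa8, Adamts8 and Meg3. In cells that passed both gates Ly6c1 stood at 275 and 436 CPM, Ptprr at 908 and 988 CPM and Pi16 at 610 and 452 CPM. Nppc, Anxa8 and Meg3 stood there at 29.8, 44.7 and 37.2 CPM in wild type and at 0 CPM in Fbn1 C1039G/+. Nts, which codes for the peptide neurotensin, stood at 1428 and 1605 CPM in the valve-gated cells.

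Members of neither gate shared much of that profile. Tm4sf1 stood at 5995 and 7172 CPM in them, and Clec2d, a C-type lectin, at 461 and 451 CPM, against 27.0 and 30.2 CPM in valve-gated members. Compared with valve-gated members, 184 of 3827 genes (4.81%) were higher and 451 (11.8%) lower in the ungated members of both libraries, and the leading higher genes included Slc5a3, Clec2d, Bmx, Edn1, Nrp1, Vwf, Fmo2, Stab1 and Cpe. Bmx, a kinase of endocardium and arteries, was at 424 and 490 CPM against 30.7 and 36.0 CPM. Edn1, which codes for the vasoconstrictor endothelin-1, was at 309 and 340 CPM against 25.1 and 25.6 CPM, but at 19.5 and 0 CPM in the capillary-gated cells. Plvap, the diaphragm protein of caveolae and fenestrae, was at 628 and 941 CPM against 100 and 191 CPM, and Npr3, the natriuretic peptide clearance receptor known from endocardium, at 136 and 190 CPM against 6.51 and 6.97 CPM. Genes that were lower were led by Chil5, Zbtb7c, Adamts8, Nrg1, Kcnc2, Ltbp2, Pgf, Ano1, Nts and Nppc. Nppc, which codes for C-type natriuretic peptide, was at 20.9 and 0 CPM in ungated members against 342 and 287 CPM. Fabp4 was at 880 and 701 CPM in ungated members against 51.1 and 300 CPM in valve-gated ones. Of the 258 UMIs behind the 300 CPM, 212 were in 1 cell. Tm4sf1 was also found in 92.1% and 92.8% and Clec2d in 31.1% and 24.8% of interstitial barcodes, and the interstitial genes of the rule took a median of 0.489% and 0.503% of UMIs in ungated, 0.425% and 0.639% in capillary-gated, and 0.110% and 0.153% in valve-gated members; the part of interstitial RNA in these levels was not tested. Leukocyte genes were also higher in the ungated members of the wild type library. Cd74 stood at 1885 and 254 CPM, H2-Aa at 759 and 104 CPM, Cd52 at 450 and 0 CPM and Ccl5 at 1005 and 0 CPM. The part of leukocyte RNA in the ungated levels was not tested. Ungated members had a median of 6580 and 5977 UMIs and valve-gated members 10269 and 11058.

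**Figure D3:**
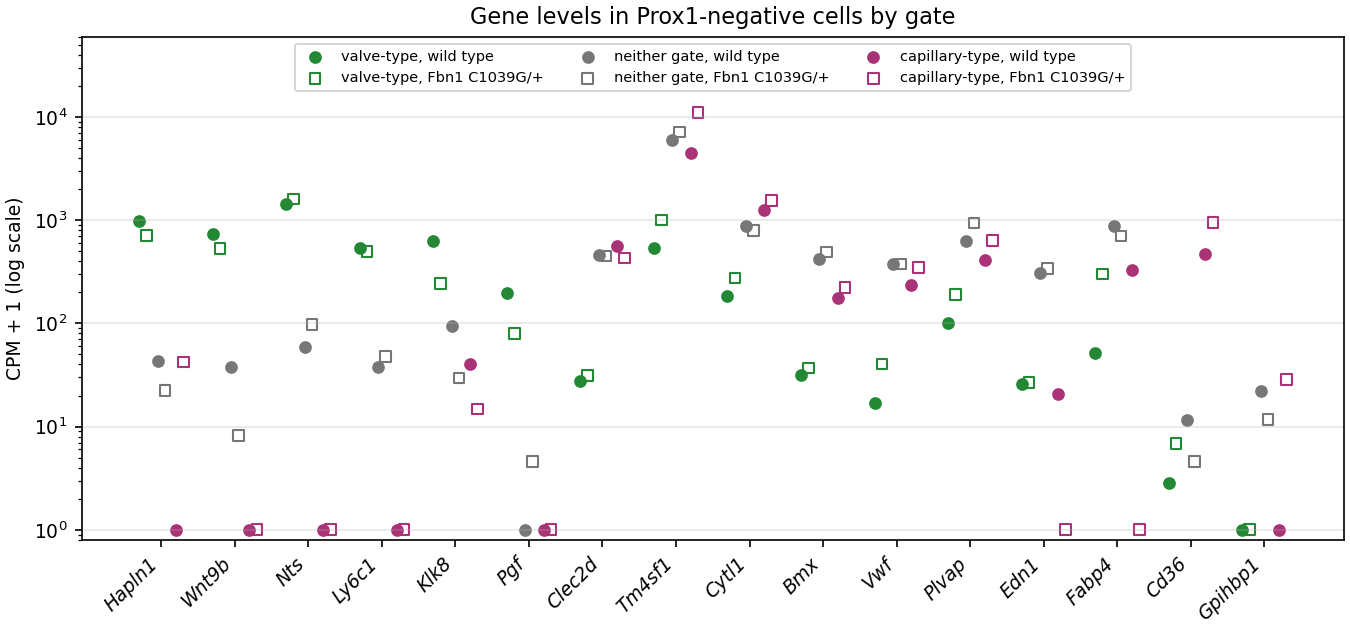
Levels of 16 genes, as CPM + 1 on a log axis, in Prox1-negative cells of wild type (filled circles) and Fbn1 C1039G/+ (open squares). Cells passed the valve gate alone (green), neither gate (grey) or the capillary gate alone (purple). No error is drawn and the capillary groups hold 6 and 12 cells. Nts, Ly6c1 and Pgf are high in valve-gated cells, while Clec2d, Tm4sf1, Cytl1, Vwf and Plvap are higher in the other plotted cells of both libraries.

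Within each library the members were set beside Prox1-positive endothelial cells as a description, since the split was read from the same cells. Of 6969 genes, 209 (3%) were at least 1.5-fold higher in the members of both libraries with both intervals excluding 1, and 229 (3.29%) were lower. The leading higher genes were Acta2, Rbp7, Klk8, Cst6, Gpc6, Nnmt, Stmn2, Htra1, Ly6a and Ano1. Klk8, a kallikrein-type serine protease (chr7:43797577-43803826), stood at 499 CPM in wild type members against 149 CPM in Prox1-positive cells, and at 181 against 35.1 CPM in Fbn1 C1039G/+. The secreted cysteine protease inhibitor Cst6 stood at 211 against 66.6 CPM and 189 against 52.9 CPM, and the cell-surface proteoglycan Gpc6 at 128 against 40.2 CPM and 77.0 against 21.7 CPM. Of the valve-surface list, Hapln1, Wnt9b, Edn1 and Tbx20 were higher in the members and Cldn11, Thbd, Foxc1 and Foxc2 lower. Foxc2, a forkhead factor that acts with Prox1 in lymphatic valves, stood at 18.6 against 133 CPM and 46.4 against 188 CPM. Of the capillary-type genes, Cd300lg and Kdr were lower in the members and Ly6c1 was higher. Klf2, Klf4, Gata4 and Nfatc1 did not pass in either direction: Nfatc1 stood at 125 against 130 CPM and 180 against 182 CPM.

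The leading lower genes, beside Prox1 itself, included Sbspon, Cldn5, Slc7a14, Coch, Cp, Rnase1, Pdgfra and Fbn2. Cldn5 (chr16:18776847-18778262) stood at 13.8 against 268 CPM in wild type and 24.4 against 337 CPM in Fbn1 C1039G/+. Pdgfra, a growth factor receptor also used as an interstitial marker, stood at 40.6 against 434 CPM and 84.1 against 449 CPM. The matrix genes Fn1 and Postn were also lower, Fn1 at 432 against 2513 CPM and 1141 against 3283 CPM. Of the 17 measured junction and identity genes that were fixed as a list, 15 could be compared: Esam was higher in the members and Egfl7, Cldn5, Fli1 and Ets1 were lower. When all cells were thinned to 3000 UMIs, 58 and 50 of 2626 genes passed, and 50 and 41 of these were among the 209 and 229.

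In the 12 genes plotted by Prox1 UMIs, cells with 1 Prox1 UMI mostly lay nearer to the members than cells with at least 6. The endothelial barcodes with 0, 1, 2 to 5 and at least 6 Prox1 UMIs numbered 124, 53, 39 and 29 in wild type and 118, 55, 84 and 60 in Fbn1 C1039G/+, with median depths of 9214, 13875, 12904 and 24638 UMIs and of 7508.5, 9990, 11982 and 23908.5. Wnt9b stood at 569, 454, 185 and 23.3 CPM along this series in wild type and at 377, 409, 183 and 50.0 CPM in Fbn1 C1039G/+. Klk8 stood at 499, 320, 97.9 and 3.88 CPM and at 181, 111, 34.6 and 2.50 CPM. Cldn5 went the other way, at 13.8, 9.66, 46.3 and 706 CPM and at 24.4, 41.9, 101 and 655 CPM. Pdgfra stood at 40.6, 78.5, 167 and 1007 CPM and at 84.1, 110, 189 and 807 CPM. With Prox1-positive cells limited to those with at least 2 Prox1 UMIs, 336 genes were higher and 302 lower in the members, 199 and 213 of them among those counted before.

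**Figure D4:**
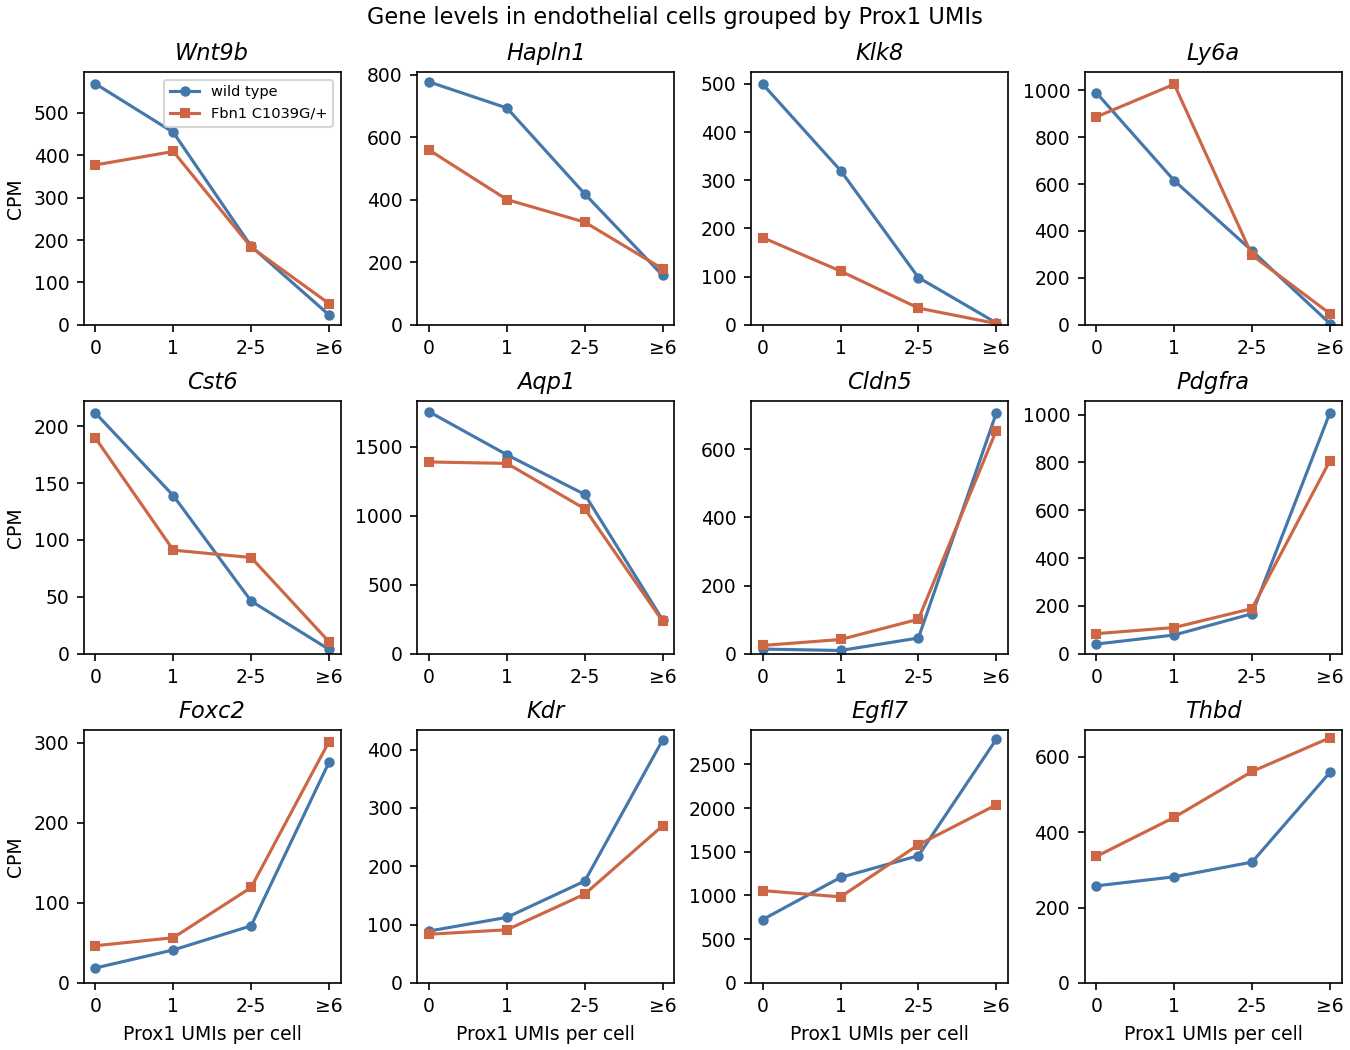
CPM of 12 genes in endothelial cells grouped by their Prox1 UMIs (0, 1, 2 to 5, at least 6) in wild type (blue circles) and Fbn1 C1039G/+ (orange squares), on linear axes from 0; each point is 1 sum over the cells of a group, no error is drawn, and lines only join the groups of a library. Wnt9b, Hapln1, Klk8, Cst6 and Aqp1 are highest or near highest at 0 Prox1 UMIs, and Cldn5, Pdgfra and Foxc2 highest at 6 or more.

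The libraries were then compared within the members. Of 7024 measured genes, 337 (4.8%) were at least 1.5-fold higher in Fbn1 C1039G/+ with an interval excluding 1, and 264 (3.76%) were lower. The median log2 ratio over all measured genes was -0.01. Fbn1 itself was at 117 CPM (100 to 136) and 141 CPM (121 to 163), with a ratio of 1.20 (0.969 to 1.49), and the counts do not tell the C1039G allele from the wild type one. Hemoglobin, sex-linked and the other gene classes left out of naming aside, the 10 largest log2(CPM + 1) ratios belonged to Dct, Ccl2, Tagln, Ccl7, Xirp2, Ube2c, Acta2, Cdc20, Nusap1 and Mest, and the 10 smallest to Ccl5, Myoc, Cd52, Lsp1, Fosb, Cd74, H2-Eb1, H2-Aa, Wif1 and Coro1a.

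**Figure D5:**
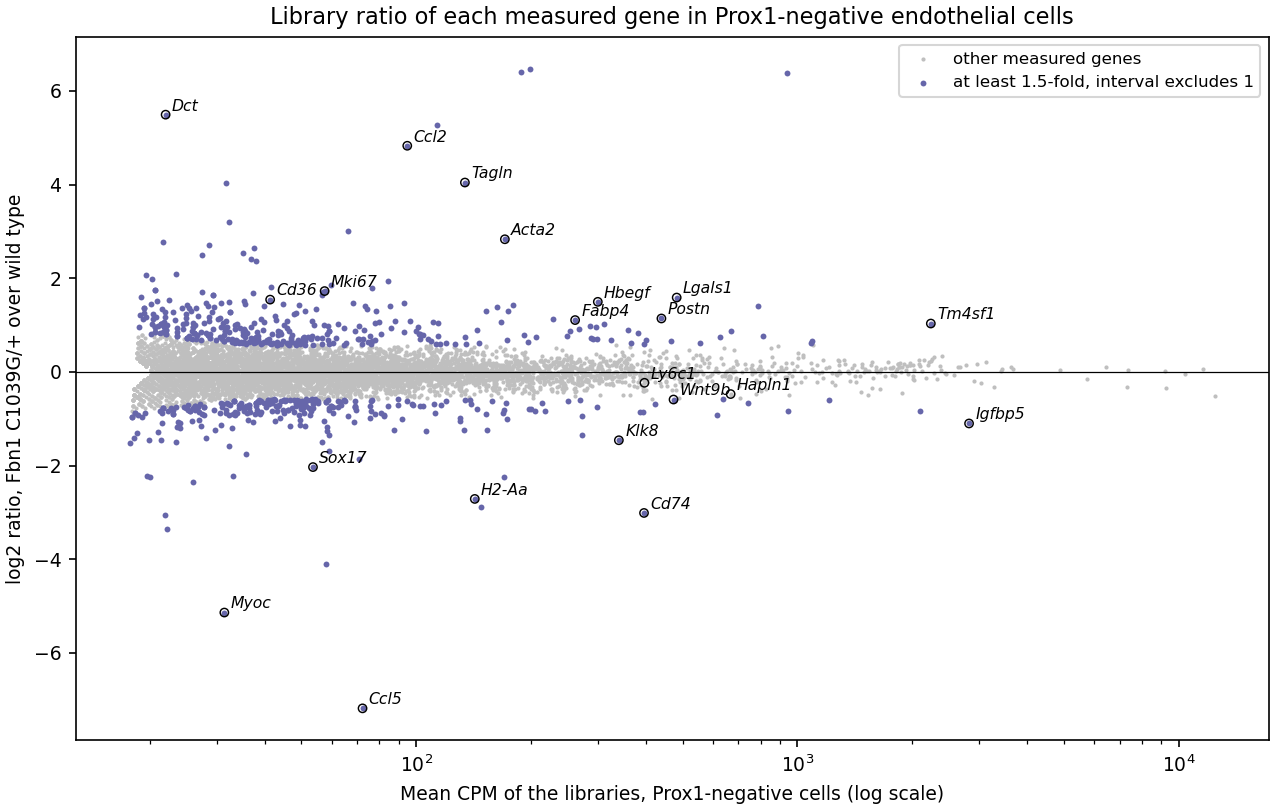
Log2 ratio of Fbn1 C1039G/+ over wild type, as log2(CPM + 1), against the mean CPM of the libraries (log axis) for each measured gene in Prox1-negative cells; blue-purple points are at least 1.5-fold apart with a counting interval that excludes 1, and ringed points are named. Igfbp5 and Klk8 lie below 0 and Ccl2, Lgals1 and Hbegf above it; the unnamed points above 5 include hemoglobin genes of 1 barcode.

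Several of these extremes came from 1 to 5 cells. Dct, a melanocyte enzyme, had 0 UMIs in wild type and 44.0 CPM in Fbn1 C1039G/+, all in 1 cell, at least 21.3-fold over the floor of 3 counts. Tagln, a smooth muscle actin-binding protein, stood at 14.5 and 254 CPM, and 5 cells held 99.1% of the Fbn1 C1039G/+ UMIs. Acta2, smooth muscle actin, stood at 41.3 and 300 CPM with 97.4% in 5 cells, and without the 5 highest cells of each library its log2 ratio was -0.35. Ccl5, a chemokine of T cells, stood at 145 CPM in 5 wild type cells and at 0 UMIs in Fbn1 C1039G/+, at least 61.3-fold lower. The MHC class II genes belong here too: all 4 measured members of that list were lower, with a median log2 ratio of -2.79, and Cd74 stood at 705 and 86.5 CPM. The 5 highest wild type cells held 95.4% of the wild type Cd74 UMIs, and 572 of the UMIs lay in the 6 cells of the capillary gate alone. Without the barcodes of highest Scrublet score the log2 ratio of Cd74 was 1.38, and within valve-gated members Cd74 stood at 40.9 and 37.2 CPM. T cell markers summed to 35.8 and 0 CPM in members and mural markers to 67.5 and 333 CPM. Acta2 is itself 1 of the 9 mural markers and the only one at 20 CPM or more, so the mural sum mostly repeats its level. The part of such cells in these genes was not tested.

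The genes that passed in all of 8 settings were then counted. Beside the main one, these dropped barcodes of highest Scrublet score, barcodes under 5000 UMIs, barcodes under 10 endothelial UMIs, the hemoglobin barcode or the 5 highest cells of a gene, scaled by TMM, or weighted each cell alike, where a fold of 1.5 alone was asked for. This held for 157 higher and 126 lower genes, and 93 and 105 of these also passed within valve-gated members alone, where 299 (5.02%) and 256 (4.29%) of 5961 genes passed. In Prox1-positive cells the libraries differed in 313 (4.28%) and 288 (3.94%) of 7306 genes. The genes named in this paragraph and the next were chosen after their values were seen. Igfbp5, an IGF-binding protein (chr1:72857932-72874884), reached 3847 CPM (3746 to 3949) in wild type and 1791 CPM (1719 to 1867) in Fbn1 C1039G/+ members. It was lower in Fbn1 C1039G/+, with a ratio of 0.466 (0.443 to 0.489). It was found in 72 of 124 and 49 of 118 members. Klk8 was lower too, at 499 and 181 CPM in 83 and 39 cells (ratio 0.362, 0.311 to 0.421). Adamts5, a protease that cleaves versican and aggrecan, stood at 392 and 154 CPM, Pgf, the placental growth factor and a ligand of Flt1, at 149 and 62.1 CPM, and Ramp3, a partner of the receptors for calcitonin-family peptides, at 216 and 90.4 CPM. Sox17, an arterial transcription factor, stood at 86.8 and 20.4 CPM, with 68.3% of wild type UMIs in 5 cells. In the valve-gated members Igfbp5, Klk8, Adamts5, Pgf, Ramp3 and Sox17 were all lower as well, with log2 ratios for Sox17 of -1.93, Klk8 of -1.36 and Igfbp5 of -1.10. In the ungated members Igfbp5 was not lower, at 262 and 512 CPM, nor was Adamts5, at 0 and 17.9 CPM. The drop was not particular to cells without Prox1. In Prox1-positive cells Igfbp5 stood at 1997 and 564 CPM, Klk8 at 149 and 35.1 CPM and Adamts5 at 199 and 39.5 CPM. Pgf stood at 59.6 and 28.9 CPM there and Ramp3 at 86.5 and 28.9 CPM, whereas Sox17 went the other way, at 27.3 and 51.2 CPM.

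On the higher side, the monocyte chemokine Ccl2 (chr11:82035571-82037453) was counted at 5.51 CPM in 6 wild type cells and 184 CPM in 16 Fbn1 C1039G/+ cells, with a ratio of 33.4 (16.7 to 78.3) and with 85.9% of the Fbn1 C1039G/+ UMIs in 5 cells. Prox1-positive cells had 132 and 374 CPM of Ccl2, and 52.1% of wild type macrophage barcodes held a UMI of it. Hbegf, a ligand of the EGF receptor, stood at 156 and 443 CPM in 68 and 65 members, and Lgals1, which codes for galectin-1, at 240 and 724 CPM in 71 and 79. Serpina3n, a serine protease inhibitor, stood at 33.7 and 119 CPM in 16 and 47 members, and the scavenger receptor Stab1 at 48.9 and 137 CPM in 37 and 58. The same direction was found in Prox1-positive cells, with Hbegf at 190 and 542 CPM and Lgals1 at 232 and 390 CPM. Serpina3n stood at 88.8 and 154 CPM there, and Stab1 at 145 and 163 CPM. Lgals1 was also found in 99.8% of wild type interstitial barcodes, and the part of their RNA in its level was not tested.

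The counts by role that follow stand beside 4.8% of all measured genes higher and 3.76% lower, and the lists hold few genes. Arterial genes divided: Gja4, Efnb2 and Bmx of 9 measured were higher in Fbn1 C1039G/+ and Sox17, Stmn2 and Jag1 lower. Efnb2 stood at 84.0 and 144 CPM and Stmn2 at 188 and 78.6 CPM. Gja4 did not pass with 10 endothelial UMIs asked for (log2 ratio 0.55), nor Jag1 with TMM scaling (-0.57). Of 8 measured venous genes, Selp, Vwf, Lrg1 and Icam1 were higher, none was lower, and the median log2 ratio was 0.61. Selp, the P-selectin of activated endothelium, stood at 41.3 and 107 CPM and Vwf at 74.4 and 130 CPM. Lrg1 did not pass without the highest Scrublet scores (0.56) or with 10 endothelial UMIs (0.59), and Icam1 not with barcodes of at least 5000 UMIs (0.69) or without its 5 highest cells (0.59). Plvap stood at 192 and 380 CPM, in 57.3% and 74.6% of members; with Pgf, which was lower, it makes up the calls among 3 measured tip cell and angiogenic genes. In the VEGF group, Nrp1 and Vegfb of 11 were higher and Nrp2 and Vegfc lower, while the receptors Kdr (88.8 and 83.3 CPM) and Flt1 did not pass. Vegfc, at 27.5 and 15.7 CPM, lost its call in 7 alternatives, among them TMM scaling (-0.76). Of 6 measured Notch genes only Jag1 passed. Selp, Vwf, Plvap, Nrp1 and Bmx are all higher in ungated than in valve-gated members, and ungated members were 22.6% and 34.7% of the libraries; Selp, Vwf and Plvap also passed within valve-gated members, whereas Nrp1, Efnb2 and Bmx did not.

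Of the valve-surface genes, Foxc2 (18.6 and 46.4 CPM, ratio 2.49, 1.56 to 4.09) and Npr3 (28.9 and 62.9 CPM) were higher and Wnt9b lower, with a ratio of 0.663 (0.592 to 0.743). The Wnt9b call was lost in 4 alternatives, with log2 ratios of -0.56 at 5000 UMIs, -0.58 without the hemoglobin barcode, -0.58 with TMM scaling and -0.45 within valve-gated members. Hapln1 had a ratio of 0.720 (0.654 to 0.791) and Wnt4 one of 0.708, both just short of 1.5-fold. Within valve-gated members Npr3 did not pass (0.09). Over the 15 measured genes the median log2 ratio was 0.32, and -0.03 over the 13 genes measured within valve-gated members. Of the capillary-type genes Cd36, Fabp4 and Lpl were higher, with a median of 0.56 over the 6 measured and 0.15 over 11 genes with no level filter. Without the 5 highest cells Fabp4 (0.50) and Lpl (0.74) did not pass. Within valve-gated members the median of the 3 measured genes was -0.04, and the cells that hold Cd36 and Fabp4 are described above. The valve gate asks for UMIs of Hapln1, Nfatc1, Wnt9b and Cldn11 and limits those of the 6 capillary-gate genes. Values of both lists within valve-gated members, Wnt9b included, therefore describe the selection in part and are no check of either list. Of 5 measured fatty acid genes 4 were higher, Cd36, Fabp4 and Lpl among them, while Fabp5, which did not pass, stood at 1261 and 1410 CPM. Of the flow and anticoagulant genes, Ednrb and Vwf of 12 were higher, while Klf2 stood at 2053 and 2376 CPM, and Nos3, the endothelial nitric oxide synthase, at 607 and 452 CPM, neither past 1.5-fold.

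On the lists of BMP and TGF-beta, basement membrane and endothelial-to-mesenchymal genes, the genes that passed were all higher; lower matrix and signalling genes outside them, such as Igfbp5 and Adamts5, are given above. Of 16 measured BMP and TGF-beta genes, Bmp2, Bmp4, Bmp6, Tgfbr3 and Tgfb2 were higher, none was lower, and the median log2 ratio was 0.32. Bmp4 stood at 183 and 313 CPM in 65 and 65 members, and Bmp6 at 30.3 and 78.6 CPM in 20 and 42. Both were higher in ungated than in valve-gated members. Bmp4 stood at 644 and 626 CPM against 117 and 208 CPM, and Bmp6 at 115 and 193 CPM against 14.9 and 33.7 CPM. Within valve-gated members Bmp2 and Bmp4 passed, while Bmp6 (1.13) and Tgfbr3 (1.08) did not. Of 12 measured basement membrane genes, Col4a1, Col4a2, Col18a1, Lamb1, Nid1 and Sparc were higher and none lower (median 0.52). Nid1, the linker protein nidogen-1, stood at 68.2 and 134 CPM in 55 and 73 members, and Col4a1 at 250 and 399 CPM. Sparc did not pass without the highest Scrublet scores (0.54), with each cell weighted alike (0.57) or without its 5 highest cells (0.53). Of 12 measured genes of the endothelial-to-mesenchymal list, Zeb2, Fn1, Acta2, Tagln and Postn were higher (median 0.23): Fn1, which codes for fibronectin, stood at 432 and 1141 CPM in 60 and 89 members and Postn at 274 and 605 CPM in 52 and 62. Acta2 (-0.35) and Tagln (0.50) did not pass without their 5 highest cells, nor Tagln without the highest Scrublet scores (0.06). Vim, the intermediate filament of mesenchymal and endothelial cells, stood at 10551 and 10210 CPM, and Snai1 and Snai2 did not reach the measured level. Postn and Sparc were found in 94.9% and 99.9% of wild type interstitial barcodes, Dcn stood at 2039 and 2470 CPM in the members, and the interstitial share of UMIs was larger in Fbn1 C1039G/+ members; its part in these genes was not tested.

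Proliferation genes stood higher in a small number of cells. Of 9 measured cell cycle genes, Mki67, Top2a, Cdk1, Ccna2 and Birc5 were higher in Fbn1 C1039G/+, none was lower, and the median was 1.65. Mki67, the marker of cycling cells, stood at 26.2 and 88.8 CPM, but in 9 of 124 and 12 of 118 members, with 84.2% and 85.0% of its UMIs in 5 cells. In Prox1-positive cells Mki67 stood at 69.4 and 69.3 CPM. Ccna2 did not pass in members at 5000 UMIs, without the highest Scrublet scores or with 10 endothelial UMIs. Of 15 measured interferon genes Bst2, Irf7 and Ifi44 were higher, Bst2 at 276 and 489 CPM in 91 and 103 members; Irf7 did not pass without its 5 highest cells (0.33), nor Ifi44 at 5000 UMIs or without the highest Scrublet scores. Immediate early genes divided 2 higher (Atf3, Hspa1b) and 2 lower (Fosb, Zfp36) of 18. Without their 5 highest cells Atf3 (0.38), Hspa1b (0.37) and Zfp36 (-0.16) did not pass. Without the highest Scrublet scores Fosb (-1.70) did not pass and Zfp36 reversed (0.40). No gene of the 15 for oxidative phosphorylation or of the 17 for junctions and endothelial identity passed in either direction.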

How the data were processed

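Single-cell 3′ libraries of mitral valve, 1 per genotype, were compared. The deposited matrices hold whole UMI counts, not normalised. Cell Ranger and mm10 are named for them, the program as version 3.1.0 per the submitters' processing notes and as 5.0.1 per the file headers. No other filtering is recorded in the sources used here, and free RNA was not subtracted.

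Barcodes were kept with at least 1000 UMIs, 500 genes and at most 20% mitochondrial UMIs, which left 9190 and 9440 of 9509 and 9744; before filtering the libraries held 100969482 and 103663375 UMIs. Members were chosen by the rule in the report, the sums of their UMIs over each library were scaled to CPM, and log2 ratios used a pseudocount of 1 CPM. Genes were measured at 20 CPM in either library and 50 UMIs over both, and counted as higher or lower at 1.5-fold with an interval excluding 1. Levels carry exact Poisson, ratios exact conditional binomial, shares Clopper-Pearson intervals and differences between 2 shares Newcombe intervals (95% throughout). Such intervals cover counting error only, and UMIs of 1 cell are not independent. Cells are not replicates, and with 1 library per genotype no p-value was computed.

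The automatic Scrublet threshold (scanpy 1.11.5) called 0.0% and 0.0106% of barcodes, which is too few to be of use, so doublets were left in. As an alternative the highest-scoring 764 and 752 barcodes, among them 10 and 3 members, were removed. TMM factors came from edgeR and were 1.00 and 0.996. The scripts were tested on simulated counts. Genes were placed with GENCODE M21 (32158 of 32285 had a position) and promoters came from RefSeq (GRCm38.p6, all 3 printed genes matched).

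Named genes were the 10 leading genes in each direction of the library, Prox1 and capillary against valve gate contrasts (gate genes left out of the last, and mitochondrial, ribosomal, hemoglobin, immune receptor and sex-linked genes and gene models left out of all), all capillary-type and valve-surface genes, up to 4 per other list by size of the log2 ratio, the endothelial markers, the genes of the rule, and Fbn1. The lists cover 18 gene groups and 13 cell types. The members, lists and markers were chosen with earlier results of these data known. The contrast of valve-gated and ungated members, genes that passed in all of 8 settings, and genes named outside the rule were chosen after their values were seen. Some genes that the rule names are not reported here.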

Additional observations from a re-analysis of the deposited data

Results flagged for a closer look

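For 8 named genes the library ratio in Prox1-negative cells had the opposite direction to that in Prox1-positive cells, at least 1.5-fold in both with counting intervals that exclude 1. The difference between the classes was not tested, because each genotype has 1 library. Values are log2 ratios of Fbn1 C1039G/+ over wild type, first in Prox1-negative and then in Prox1-positive cells.

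Cd36, Fabp4 and Lpl, which handle fatty acids, were at 1.543 and -1.372, at 1.106 and -3.348, and at 0.7611 and -1.51. Fabp4 had 308 UMIs in 23 wild type Prox1-positive cells and 47 in 6 Fbn1 C1039G/+ ones, and 1 Fbn1 C1039G/+ member held 212 of its 454 UMIs. Without the 5 highest cells neither Fabp4 (0.50) nor Lpl (0.74) passed in members. Npr3, the natriuretic peptide clearance receptor, was at 1.094 and -1.477, with 42 and 80 UMIs in 18 and 27 members.

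Sox17, the arterial transcription factor, was at -2.033 and 0.8846, with 26 and 14 members holding a UMI. Wif1, a secreted Wnt inhibitor, was at -2.347 and 0.9318, in 18 and 9 members and in 73.8% of wild type interstitial barcodes. Without the highest Scrublet scores its member ratio was -0.53 and without the 5 highest cells -1.26, and neither passed. Nusap1, a spindle protein of dividing cells, was at 2.702 and -0.5918, in 4 and 6 members, and did not pass in members without the 5 highest cells. Dct, the melanocyte enzyme, was at 5.493 and -3.06; the first value rests on 1 cell and on the pseudocount, because wild type members had 0 UMIs.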

How the results depend on the processing

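No paired analysis was possible because each genotype has 1 library, and for the same reason no replicate could be left out. The shares without Prox1, in the valve gate and in the capillary gate kept their direction and their side of 0 in every alternative run: depth of 5000 UMIs, removal of highest Scrublet scores, 10 endothelial UMIs, barcodes shared by the libraries (Prox1 share alone), thinning, and a gate of 5 UMIs (gates alone). The differences ranged from -15.7 to -11.9 points for Prox1, -19.7 to -14.0 for the valve gate and 0.205 to 6.53 for the capillary gate. The count of higher genes was 602 and of lower genes 459 with no level filter, and 120 and 112 after thinning, where 2571 genes were tested; with each cell weighted alike, which gives no counting interval, 504 genes were higher and 520 lower.

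Of 102 named genes, 65 passed. Of these, 24 still passed after thinning, 41 without the 5 highest cells, 51 without the highest Scrublet scores and 37 within valve-gated members. The 51 include Cd74, H2-Eb1, H2-Aa and H2-Ab1, which passed there in the opposite direction. Directions reversed as follows (log2 ratio). Without the highest Scrublet scores Cd74 was at 1.38, H2-Eb1 0.82, H2-Aa 1.65, H2-Ab1 1.08, Coro1a 0.13 and Zfp36 0.40. Without the 5 highest cells Acta2 was at -0.35, Cd74 0.19, H2-Aa 0.88 and H2-Ab1 0.51. Within valve-gated members H2-Aa was at 0.11, H2-Ab1 0.037, Coro1a 0.28 and Zfp36 0.015. After thinning Nrp2 was at 0.093 and Hspa1b at -0.0072. The alternatives without the hemoglobin barcode, and both for the Prox1 contrast, were chosen after seeing the data. Values within capillary-gated members, planned as an alternative, were not run, because those groups hold 6 and 12 cells. Depth limits genes below about 20 CPM, where a member sum holds few UMIs.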
